A study of Mus musculus with 2 samples.

Results

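The genes described here are the nuclear-encoded components of mouse oxidative phosphorylation, chosen by gene symbol: every row whose symbol begins with Nduf, Uqcr, Cox4i, Cox5, Cox6, Cox7, Cox8 or Atp5, together with Sdha, Sdhb, Sdhc, Sdhd and Cycs. The rule finds 93 of the 26078 genes in the files. Of these, 81 encode structural subunits, 36 in complex I, 4 in complex II, 8 in complex III, 18 in complex IV and 15 in complex V. The other 12 are 8 Ndufaf assembly factors, the electron carrier Cycs, the supercomplex factor Cox7a2l, the Ndufa4 paralog Ndufa4l2 and the coupling factor gene Atp5s. The symbol rule uses no measured value, but it was set with earlier results of these data known. The 13 subunits encoded in mitochondrial DNA, whose symbols begin with mt-, are given beside them.

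Oxidative phosphorylation runs in the inner mitochondrial membrane. Complex I (NADH dehydrogenase) and complex II (succinate dehydrogenase) pass electrons to ubiquinone, complex III passes them to cytochrome c, complex IV (cytochrome c oxidase) passes them to oxygen, and complex V (ATP synthase) uses the resulting proton gradient to make ATP. Complexes I, III, IV and V are built from nuclear and mitochondrial gene products, while complex II is wholly nuclear. Kupffer cells are macrophages that live in the sinusoids of the liver. They clear aged and antibody-coated red cells and recycle their iron.

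Single-cell RNA sequencing was carried out on liver cells of 2 C57BL/6J mice aged 7 to 10 weeks. The Ter119 mouse received a single subcutaneous dose of 35 ug of Ter119, an antibody against a red cell surface protein, and then 10 daily doses of 10 ug; the saline mouse received a like volume of saline. Livers were taken 24 after the last injection (the unit is not given), and the non-parenchymal suspension was enriched on beads carrying antibodies to F4/80 and CD11b. The labels say that hashtagged cells of both mice were pooled, and how cells were assigned to mice is not given. With 1 mouse per treatment no difference between treatments can be tested, and the treatment, the animal and its count matrix cannot be told apart. All intervals below are 95% and cover counting error only.

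The saline matrix held 18354 barcodes with a median of 3523 UMIs (unique molecular identifiers, each standing for 1 captured RNA molecule), and the Ter119 matrix 25760 barcodes with a median of 1854. After requiring 1000 UMIs, 500 genes and at most 15% mt- UMIs, 11572 and 13846 cells were kept. The mt- limit removed 25.3% of saline and 5.96% of Ter119 barcodes that had passed the other filters. Hemoglobin transcripts made up 0.0135% of the saline and 10.8% of the Ter119 UMIs. The files share 133 barcodes; leaving these out, the summed ratio of the nuclear subunits in Kupffer-like cells was 1.13, as with them. Cells were put into classes by marker genes, giving 9227 saline and 7591 Ter119 Kupffer-like cells, 585 and 926 endothelial-like, 202 and 484 monocyte-like and 229 and 494 neutrophil-like cells; 10.4% and 29.8% of cells entered no class. Kupffer-like cells had a median of 7002 UMIs in saline and 3731 in Ter119.

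The 8 Kupffer markers define the Kupffer-like gate, so their presence in the class is built in and does not check the label. Their levels moved with treatment. Cd5l stood at 7500 CPM (UMIs per 1000000 UMIs of the class) in saline and 5260 in Ter119, Clec4f at 5358 and 965, Vsig4 at 3213 and 615, Timd4 at 582 and 24.2, C6 at 1039 and 54.8 and Clec1b at 594 and 426. Marco, at 852 and 4081, and Fcna, at 1835 and 2491, were higher in Ter119. Markers of neighbouring classes, most of which the gate also limits, were low but all detected in these cells. The 10 endothelial markers summed to 934 CPM in saline and 330 in Ter119, of which Cdh5 alone made up 675 and 97.7; without it the sums were 259 and 232. The 10 monocyte markers summed to 755 and 333, of which Plac8 made up 509 and 80.1; without Plac8 and Chil3, which other cells share, the sums were 245 and 246. The 12 neutrophil markers summed to 112 and 250. Hepatocyte markers, which gate no cells, summed to 2135 CPM in saline and 311 in Ter119 Kupffer-like cells, and red cell markers, hemoglobin included, to 157 and 104161. The part of these RNAs in the results below was not tested beyond the scalings given.

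In Kupffer-like cells the nuclear subunits together held a slightly larger share of the UMIs in the Ter119 mouse, whereas the mt- encoded subunits held a smaller one. The 81 nuclear subunits summed to 16111 CPM in the saline sample and to 18148 in the Ter119 sample, or 1.126 times as much (1.123 to 1.130). The 13 mt- encoded subunits summed to 69391 and 50632 CPM, at a ratio of 0.730 (0.728 to 0.731). The nuclear-encoded and mitochondrially encoded parts of the same machinery therefore lay on opposite sides of 1.

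Single genes followed the same split. Of the 81 nuclear subunits, 74 reached 20 CPM in at least 1 sample; 52 of these had a ratio above 1 and 22 below it. Over all 6388 genes that reached 20 CPM, 25.1% had a ratio above 1. The median log2 ratio was 0.15 for the 74 subunits and -0.35 for all genes. At the size rule of 1.5-fold, 5 subunits stood higher in Ter119 and 0 lower, against 6.09% of all genes higher and 30.7% lower, so the number past the fold on the high side is near the background. At 2-fold no subunit passed on either side, against 3.02% and 11.6% of all genes. All 13 mt- encoded genes had ratios below 1, with a median log2 ratio of -0.50, and 6 were at least 1.5-fold lower.

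The background differed with expression level, which is why the subunits were also set beside genes of like abundance. Among genes other than mt- with a mean of 20 to 100 CPM the median log2 ratio was -0.34, and 15 subunits in that range had a median of 0.15. Between 100 and 300 CPM the medians were -0.26 for all genes and 0.21 for 38 subunits. At 300 CPM and over, where 44.1% of all genes had a ratio above 1, the medians were -0.09 for all genes and 0.09 for 21 subunits. The distance between subunits and other genes was smallest in this most abundant range.

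**Figure D1:**
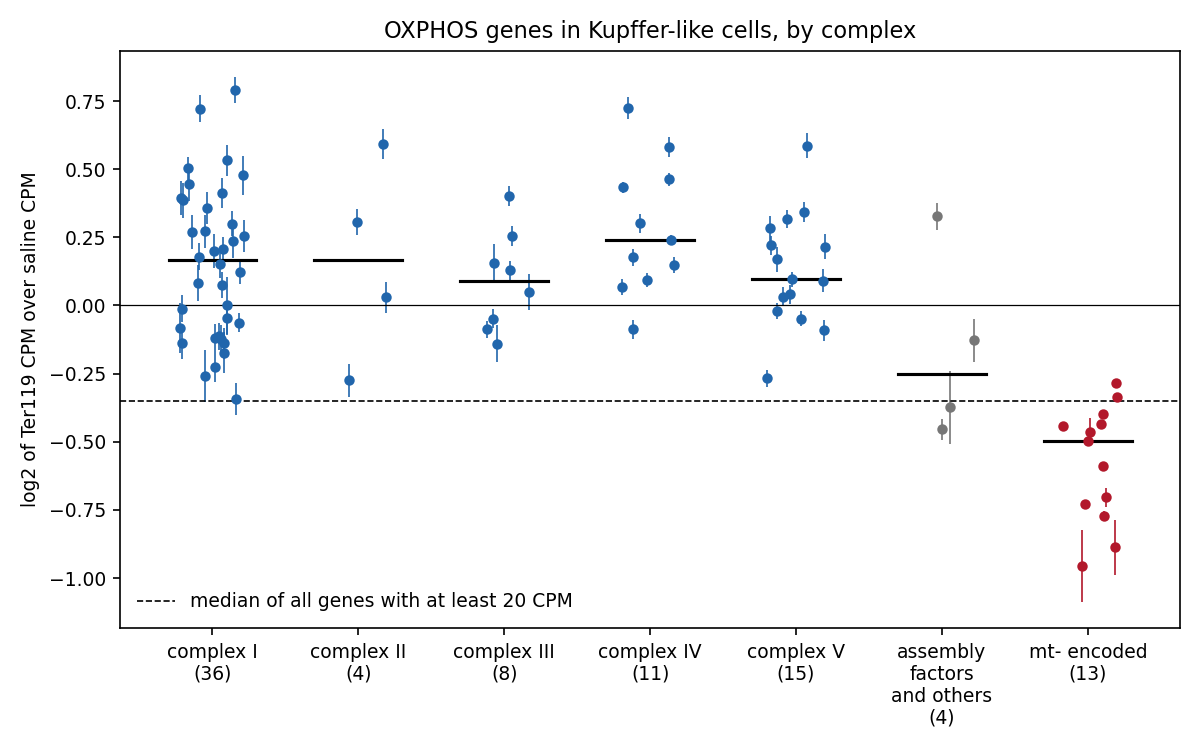
Each point is 1 gene with at least 20 CPM in Kupffer-like cells, plotted as the log2 ratio of Ter119 CPM over saline CPM with its 95% counting interval. Columns are complexes I to V (nuclear subunits), the members outside the complexes, and the mt- encoded subunits, with the number of genes in parentheses. Short black lines are medians and the dashed line is the median of all genes. All 74 nuclear subunits lie above the dashed line, the lowest only just (-0.343 against -0.349), and all 13 mt- encoded genes lie below 0.

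Leaving out cells with over 1% hemoglobin UMIs gave 1.24 for the Kupffer-like nuclear subunits. The choice of denominator also sets the size of these values. Scaled to nuclear UMIs without hemoglobin, the Kupffer-like nuclear subunits had a ratio of 1.24 and the mt- encoded subunits 0.802, with 66 of the 74 subunits above 1 and 8 below. Scaled by the median of gene ratios they were 1.47 and 0.951, with 74 subunits above 1 and 0 below, and 2 of the 13 mt- genes crossed to above 1. A scaling multiplies every gene of a class by 1 factor, so the quotient of the nuclear and mt- ratios is the same in each by construction. The all-gene median moved from -0.35 to -0.21 and 0.03 on the log2 scale.

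In what follows a pair of CPM values gives saline first and Ter119 second, with their ratio and its interval in parentheses. Complex I, the entry point for electrons from NADH, summed to 4359 CPM in Kupffer-like cells of the saline mouse and 4872 in those of the Ter119 mouse (1.118, 1.111 to 1.125). Its 7 nuclear core subunits, which hold the flavin and iron-sulfur clusters, had a summed ratio of 1.190, and its 29 accessory subunits 1.108. Among core genes, Ndufs3 (61.1 and 85.2 CPM), Ndufs8 (76.7 and 104.6) and Ndufs7 (94.3 and 113.9) stood higher in Ter119, while Ndufs1, which carries iron-sulfur clusters of the hydrophilic arm, stood at 49.1 and 41.0. The core subunits thus did not move as one.

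The widest differences in complex I were among accessory subunits. Ndufab1, the mitochondrial acyl carrier protein, which also serves lipoic acid and iron-sulfur cluster synthesis, was at 123.7 and 214.0 CPM in saline and Ter119 (1.73, 1.68 to 1.79). Ndufv3, a small subunit of the flavin-bearing module, was at 109.6 and 180.7 CPM (1.65, 1.59 to 1.71), and Ndufb11, a membrane arm subunit, at 97.2 and 140.6 CPM (1.45, 1.391 to 1.503). On the other side Ndufb3, also of the membrane arm, was at 133.8 and 105.4 CPM (0.788, 0.757 to 0.821). Ndufb4 was at 142.5 and 122.0 CPM (0.856), and Ndufs4, loss of which is known to cause Leigh-like disease in mice, at 77.5 and 68.8 CPM (0.887). Ndufa2, the complex I member with the most UMIs, was close to level at 339.0 and 324.6 CPM (0.958, 0.935 to 0.981). Genes of the same membrane arm (Ndufb11 and Ndufb3) therefore lay at opposite ends of the complex I range. Ndufab1 lies at chr7:122085403-122101886 on the minus strand and Ndufb3 at chr1:58586384-58595964 on the plus strand (GRCm38, GENCODE vM21 gene models).

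Complex II, which also works in the citric acid cycle, summed to 489 and 555 CPM (1.134, 1.113 to 1.155). Its 4 genes divided between the catalytic part and the membrane anchor. Sdha, the flavoprotein, was at 150.1 and 185.6 CPM (1.24), and Sdhb, the iron-sulfur protein, at 95.9 and 144.5 (1.51, 1.45 to 1.57). The anchor subunit genes Sdhc and Sdhd were at 121.6 and 124.2 CPM (1.02, 0.982 to 1.06) and at 121.6 and 100.5 CPM (0.827, 0.793 to 0.862). Both catalytic genes lay above both anchor genes in ratio.

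Complex III summed to 1808 and 1931 CPM (1.068, 1.058 to 1.079), with every member within 1.5-fold. Uqcr10 was at 237.2 and 313.7 CPM (1.32), Uqcrq, the ubiquinone-binding small subunit, at 274.3 and 327.3 (1.19), and the core gene Uqcrc1 at 72.4 and 80.5 (1.11). The second core gene, Uqcrc2, was at 91.7 and 83.2 (0.907). Uqcrh, the hinge protein next to cytochrome c1 and the complex III member with the most UMIs, was at 430.2 and 404.7 (0.941), and Uqcr11 at 323.4 and 312.7 (0.967). The mt- encoded partner, mt-Cytb, was at 5915 and 4493 CPM (0.760).

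Complex IV summed to 4990 and 6033 CPM (1.209, 1.202 to 1.216), the highest ratio of the 5 complexes over all Kupffer-like cells. In cells with 2000 to 4000 UMIs it was at 1.08 and complex II at 1.138, so that order does not hold at each depth. Of its 11 genes with at least 20 CPM, 10 were above 1. Cox7b was at 167.6 and 276.9 CPM (1.65), Cox5b, a zinc-binding subunit, at 219.9 and 329.1 (1.496, 1.459 to 1.535), Cox8a at 536.4 and 739.1 (1.38) and Cox4i1, a regulatory subunit that binds ATP, at 699.6 and 944.3 (1.35). Cox5a, the member with the most UMIs in saline, was at 934.5 and 1103 (1.18). The lowest ratios were those of Cox6a1 (336.0 and 316.1 CPM, 0.941), Cox6c (456.3 and 478.6, 1.05) and Cox7c (533.7 and 569.1, 1.07). The catalytic core of the enzyme is mt- encoded, and there mt-Co1 was at 15119 and 11171 CPM (0.739), mt-Co2 at 9279 and 7621 (0.821) and mt-Co3 at 12772 and 9398 (0.736). The nuclear and mt- encoded genes of complex IV had summed ratios of 1.209 and 0.758.

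Complex V summed to 4464 and 4757 CPM (1.066, 1.059 to 1.072); with complex III it had the lowest ratio, and the intervals of these 2 overlap. Atp5a1, the alpha subunit of the F1 head, was at 415.8 and 345.5 CPM (0.831, 0.812 to 0.850), and its partner Atp5b, the catalytic beta subunit, at 302.6 and 311.4 (1.03). Atp5e, the epsilon subunit of the central stalk, was at 529.6 and 512.3 (0.967). In the peripheral stalk Atp5h was at 308.3 and 383.9 (1.245), and Atp5j2, a small membrane subunit, at 246.7 and 312.7 (1.27). The mt- encoded pair, mt-Atp6 and mt-Atp8, were at 10218 and 6786 CPM (0.664) and at 60.7 and 32.8 CPM (0.540).

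Atp5g1, Atp5g2 and Atp5g3 encode the same mature c subunit of the ATP synthase ring, and they did not move together. Atp5g1 was at 146.7 and 220.3 CPM (1.502, 1.456 to 1.549). Atp5g2 was level at 441.2 and 435.4 (0.987, 0.967 to 1.01), and Atp5g3 was at 297.6 and 279.3 (0.939). Reads of such related genes can be shared, so how the counting divided them is uncertain. Atp5g1 was also the gene of the 3 with the highest ratio in endothelial-like (1.29, 1.08 to 1.55), monocyte-like (1.14, 0.962 to 1.34) and neutrophil-like cells (2.79, 1.79 to 4.53).

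Outside the complexes, the supercomplex factor gene Cox7a2l was at 324.9 and 237.1 CPM in Kupffer-like cells (0.730, 0.710 to 0.749). This ratio was lower than that of any nuclear subunit with at least 20 CPM. Supercomplexes were not measured. In endothelial-like cells the same gene was at 238.1 and 257.5 CPM (1.08, 0.948 to 1.23). Cycs, cytochrome c, was at 130.3 and 163.4 CPM in Kupffer-like cells (1.254, 1.211 to 1.299). Among the Ndufaf assembly factors of complex I, 2 of 8 reached 20 CPM, Ndufaf4 at 25.87 and 19.97 CPM (0.772) and Ndufaf8 at 64.5 and 59.0 (0.915).

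In Kupffer-like cells 15 of the 93 members stayed under 20 CPM in both samples. Of these, 7 are subunits, all of complex IV and known as isoforms of particular tissues such as muscle, lung or testis: Cox4i2, Cox6a2, Cox6b2, Cox7a1, Cox7b2, Cox8b and Cox8c. The other members under 20 CPM are Ndufaf1, Ndufaf2, Ndufaf3, Ndufaf5, Ndufaf6, Ndufaf7, Atp5s and Ndufa4l2. Cox4i2, the oxygen-responsive lung isoform, had 23 UMIs in saline and 29 in Ter119 (0.327 and 0.980 CPM), against 49155 and 27944 UMIs for its ubiquitous counterpart Cox4i1. Cox7a1, the muscle isoform, had 217 and 180 UMIs (3.09 and 6.08 CPM), against 301.2 and 371.1 CPM for Cox7a2. Cox6a2 had 18 and 23 UMIs and Cox6b2 292 and 163. Cox7b2 and Cox8c had 0 UMIs in both samples, which allows up to 0.0427 CPM in the saline and 0.101 in the Ter119 cells, and Cox8b had 2 and 0 UMIs. Ndufa4l2, a hypoxia-responsive paralog, had 20 UMIs in saline and 1 in Ter119, against 28150 and 13394 for Ndufa4. In both samples the ubiquitous isoforms carried nearly all of the UMIs.

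Among the mt- encoded genes the ratio was not the same throughout. In Kupffer-like cells it ran from 0.516 for mt-Nd6 (37.9 and 19.6 CPM), the light-strand gene, to 0.821 for mt-Co2. The 7 complex I genes had a summed ratio of 0.695, the 3 of complex IV 0.758 and the 2 of complex V 0.663. The 2 mitochondrial ribosomal RNAs, whose capture by poly(A) priming is partial, stood lower still, at a summed ratio of 0.584. The mt- share was also a cell filter: before the limit its median was 8.86% of UMIs per cell in saline and 4.70% in Ter119, and after it 7.28% and 4.43%.

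Kupffer-like cells were also divided by their mt- share, and nuclear subunits were expressed per 1000000 nuclear UMIs other than hemoglobin. In cells with 0 to 5% mt- UMIs the nuclear subunits were at 18521 in saline and 22288 in Ter119 (1.203). The values were 17180 and 21036 at 5 to 10% (1.22), 16776 and 19132 at 10 to 15% (1.14), and 16071 and 16825 at 15 to 25% (1.05). Within both samples the level was lower in each higher band of mt- share, and the Ter119 value was above the saline value in each band. Across single cells the nuclear subunit share of nuclear UMIs was set against the mt- encoded share of all UMIs. Pearson's r was -0.109 over 9227 saline cells and -0.324 over 7591 Ter119 cells. Cells of a sample come from 1 mouse and differ in depth, so these weak values are a description. In the band of 15 to 25%, complex II was at 1.212 and complex IV at 1.094. Complex V was at 0.988 in the 15 to 25% band, the only complex below 1 in any of these bands.

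Depth moves with treatment, so the same values were computed in bands of UMIs per cell. The ratio was 1.11 for cells with 1000 to 2000 UMIs, 1.12 for 2000 to 4000, 1.35 for 4000 to 8000 and 1.27 at 8000 and over, where only 226 Ter119 cells remained against 3960 saline cells. These bands used nuclear UMIs other than hemoglobin as denominator. On CPM of all UMIs, cells with 2000 to 4000 UMIs gave 1.02 for all nuclear subunits in place of 1.12. Complex V then stood at 0.944 in place of 1.038. With at most 5% mt- UMIs the CPM ratio was 1.03, against 1.203 in the 0 to 5% band on the other denominator. The size of the difference therefore depended on the denominator as well as on which cells were compared.

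**Figure D2:**
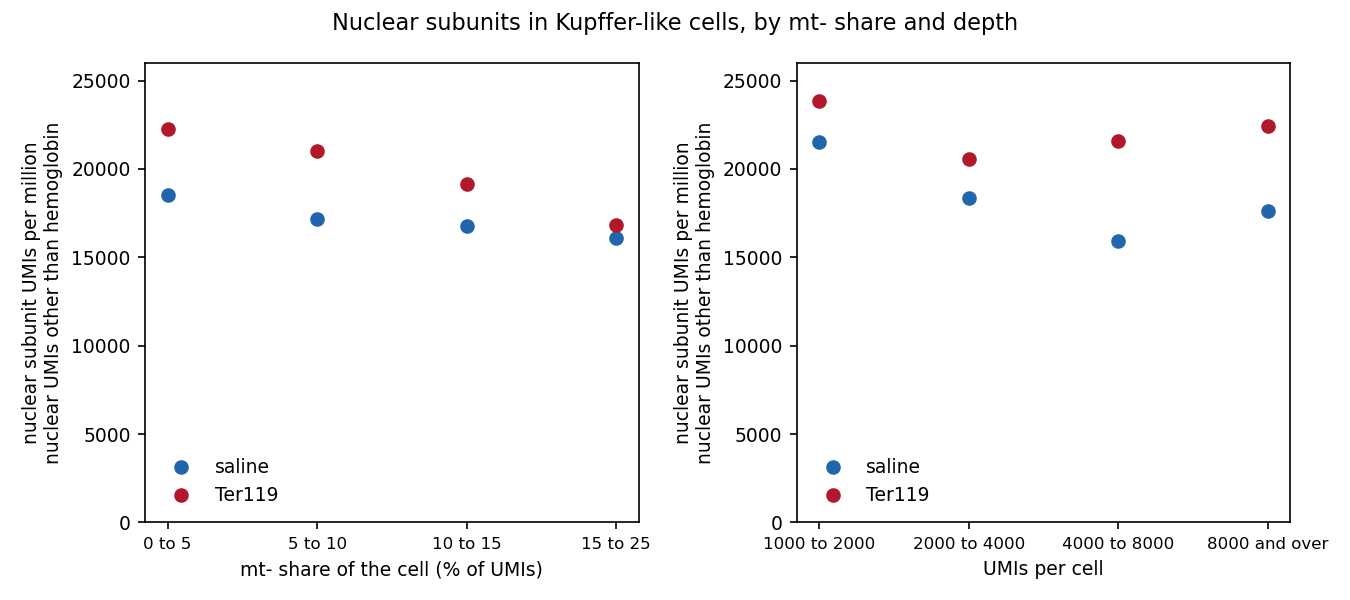
Nuclear subunit UMIs per 1000000 nuclear UMIs other than hemoglobin in Kupffer-like cells (vertical axis) for saline (blue) and Ter119 (red). The left panel bands cells by mt- share of UMIs, with the band of 15 to 25% taken from cells removed by the main filter, and the right panel by UMIs per cell. The red point is above the blue point in each of the 8 bands, with the smallest gap at 15 to 25% mt-.

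Per cell, nuclear subunits made up a median of 1.67% of nuclear UMIs other than hemoglobin in saline Kupffer-like cells (10th to 90th percentile 1.22 to 2.44%) and 2.12% in Ter119 (1.52 to 2.89%). The ranges of single cells overlapped widely. The level hardly differed with hemoglobin load within the Ter119 sample: it was 21405 in cells with at most 1% hemoglobin UMIs and 21382 in cells with over 10%. Ter119 cells with and without a UMI of Gpnmb, a gene of lysosome-loaded macrophages, were at 21364 and 21876. Cells with at least 3 UMIs of the proliferation genes Mki67, Top2a, Birc5 or Ube2c were at 23079 in Ter119 and 18787 in saline, against 21330 and 17177 in cells with none. In both samples the cells with proliferation transcripts thus held more subunit RNA, and these cells were also deeper (medians of 5639 and 10785 UMIs against 3567 and 6478).

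Other mitochondrial gene groups were set beside the subunits in Kupffer-like cells, where 25.1% of all genes had a ratio above 1 and the all-gene median was -0.35. Mitochondrial ribosomal protein genes resembled the nuclear subunits, with 49 of 66 above 1 and a median log2 ratio of 0.16, although their range ran from Mrpl3 at 0.432 to Mrpl1 at 1.87. Cytosolic ribosomal protein genes had 68 of 80 above 1 and a median of 0.22. The citric acid cycle and pyruvate dehydrogenase genes had 2 of 15 above 1 and a median of -0.17, from Suclg2 (57.5 and 35.7 CPM, 0.621) to Idh3b (55.4 and 69.3, 1.252). Assembly factors outside the symbol rule had 8 of 17 above 1 and a median of 0.00, from Cox16 at 0.583 to Tmem126b at 1.52. Transporters of the mitochondrial membranes had 8 of 15 above 1 and a median of 0.02; the uncoupling protein gene Ucp2 was lowest (1134 and 761 CPM, 0.672) and Mpc1, a subunit of the mitochondrial pyruvate carrier, highest (49.8 and 94.1, 1.89). Sdha to Sdhd aside, most cycle enzymes thus lay below 1, as did most genes, with a median nearer to 1 than that of all genes.

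The 17 regulators of mitochondrial gene expression summed to 497 CPM in saline and 399 in Ter119 (0.804, 0.788 to 0.821). In all, 9 reached 20 CPM, 4 of them (Gabpa, Nrf1, Ppargc1b and Tfam) in saline only, so the filter itself favours low ratios in this list. Of the 9, 1 was above 1 and 6 were at least 1.5-fold lower, against 25.1% and 30.7% of all genes. Gabpa, the DNA-binding subunit of nuclear respiratory factor 2, was at 39.0 and 19.8 CPM (0.509, 0.464 to 0.556). Nrf1, nuclear respiratory factor 1, was at 25.1 and 13.7 (0.546, 0.489 to 0.609), Esrra at 40.8 and 23.7 (0.580), and Ppargc1b, the coactivator PGC-1 beta, at 29.8 and 15.7 (0.528). Tfam, which packages mitochondrial DNA and starts its transcription, was at 22.5 and 19.4 (0.861), and Yy1 at 103.5 and 94.0 (0.909). Slirp, which stabilises mitochondrial messenger RNA, was at 84.6 and 111.0 (1.31). In endothelial-like cells the 17 regulators had a summed ratio of 0.833 (0.754 to 0.919), and 5 of the 8 with at least 20 CPM were below 1. Of all genes in that class 27.9% were above 1, so most genes lay below 1 too. There Gabpa was at 1.03 (0.726 to 1.46) and Nrf1 at 1.204 (0.817 to 1.77), on few UMIs.

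Promoters of the members were searched for the letters that these factors are known to bind, since most members lay on the same side of 1. RefSeq windows from 250 bases before to 50 after the transcript start were found for 75 of the 93 members (build GRCm38.p6). Motifs were searched on both strands, and several spellings had been tried before these were kept. The NRF1 letters, GCGCA and GCGC around any 1 base, were found in 19 of 75 members (25.3%) and in 7.17% of 17492 genes. The ETS letters CCGGAAG, which GABPA binds, were found in 18 members (24.0%) and 12.9% of all genes, and the YY1 letters AAGATGGCG in 8 members (10.7%) and 2.14% of all genes. Cytosolic ribosomal protein genes held the ETS letters in 41.3% and mitochondrial ribosomal protein genes in 37.7%. In the same order, the NRF1 letters were found in 9.52% and 18.8% and the YY1 letters in 6.35% and 11.6%. No matches of different motifs shared a base.

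The following stretches show the matches in members at both ends of the Kupffer-like range, each 5′ to 3′ on the gene's strand with the motif, or its reverse complement, in capitals. Sdhb (ETS, chr4:140961267-140961293) and Cox8a (ETS, chr19:7217605-7217631) stood higher in Ter119, Sdhd (NRF1 at chr9:50603909-50603938 and ETS at chr9:50603879-50603905) and Ndufb4 (NRF1, chr16:37654371-37654400) lower. Atp5j2 (YY1, chr5:145191500-145191528) and Ndufs4 (YY1, chr13:114388045-114388069) differ in direction although both hold the YY1 letters.
Sdhb ETS: ctcggagaaaCCGGAAGcggccttcca
Cox8a ETS: ttccgaaataCTTCCGGctcgggcgtc
Sdhd NRF1: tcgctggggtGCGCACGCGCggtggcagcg
Sdhd ETS: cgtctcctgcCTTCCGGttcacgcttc
Ndufb4 NRF1: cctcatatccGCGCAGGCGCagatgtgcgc
Atp5j2 YY1: ccaggacttcAAGATGGCGtcactcggtg
Ndufs4 YY1: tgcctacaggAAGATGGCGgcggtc
Members with a motif did not have the higher ratios. The 18 members with NRF1 letters and at least 20 CPM had a median log2 ratio of 0.04, against 0.19 for the 48 without, and the 17 with ETS letters 0.10, against 0.18 for 49. These are descriptions of letters in a window and not of binding.

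Levels differed between cell classes within each sample. On CPM of all UMIs, summed nuclear subunits were highest in monocyte-like cells (20686 in saline and 19415 in Ter119) among the 4 classes compared. They were lowest in neutrophil-like cells (11386 and 13784). There the 12 neutrophil markers alone summed to 138353 and 311387 CPM, which leaves less of the CPM for other genes. The lowest place therefore belongs to this denominator and may not hold without those UMIs. The order without them was not computed. Kupffer-like cells (16111 and 18148) lay above endothelial-like cells (15771 and 16816) in both samples, with counting intervals that did not overlap. Per 1000000 nuclear UMIs other than hemoglobin the saline values were 17373 (17341 to 17406) and 17257 (17077 to 17438), whose intervals do overlap. The mt- encoded subunits had another order, with endothelial-like cells highest in both samples (79286 and 56398 CPM). Among the nuclear complexes, complex II was highest in Kupffer-like cells in both samples, at 489 and 555 CPM, against 358 and 345 in endothelial-like, 439 and 376 in monocyte-like and 233 and 246 in neutrophil-like cells. Complex IV was highest in monocyte-like cells in saline (6176 CPM, against 4990 in Kupffer-like cells) and in Kupffer-like cells in Ter119 (6033, against 5842 in monocyte-like cells).

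**Figure D3:**
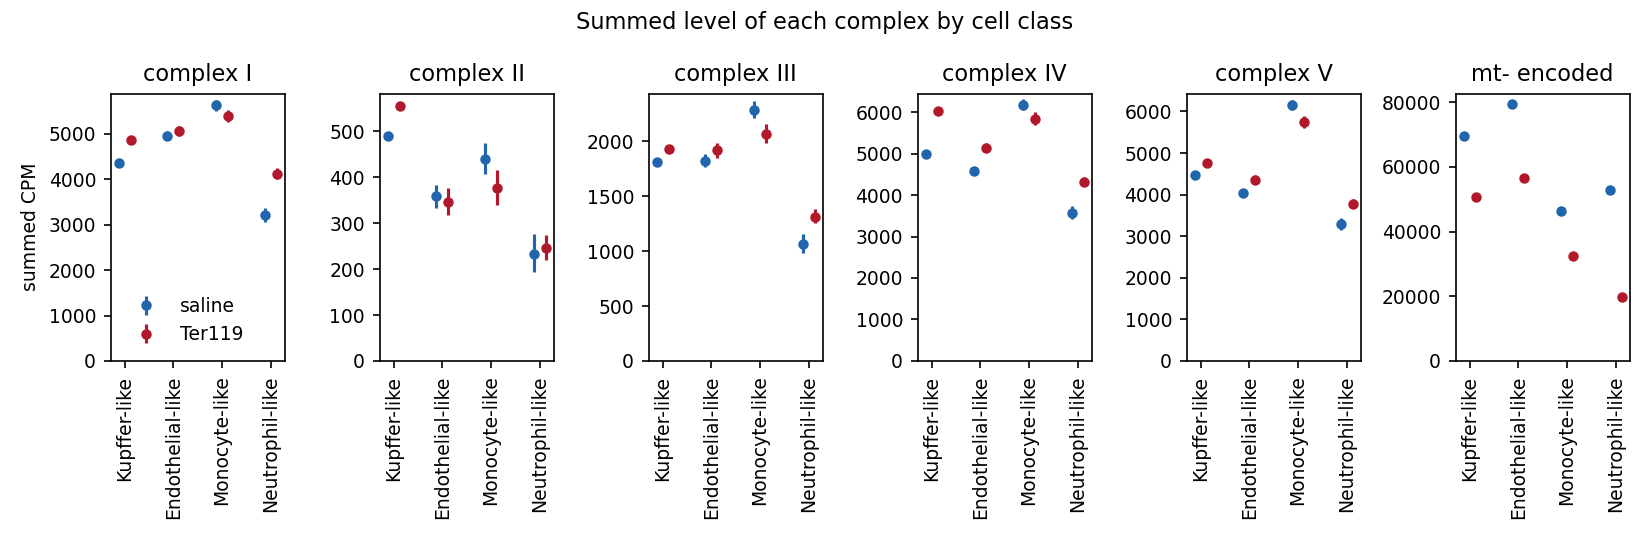
Summed CPM of the nuclear subunits of complexes I to V and of the mt- encoded subunits (vertical axes from 0, different for each panel) in 4 cell classes, for saline (blue) and Ter119 (red), with 95% counting intervals. On this scale complex II is highest in Kupffer-like cells in both samples, and neutrophil-like cells are lowest for each nuclear complex. The red mt- points are below the blue ones in each class.

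The members with the widest range between classes in both samples were Sdhc, Cox5a, Ndufa12, Ndufb5 and Ndufab1. Sdhc was highest in Kupffer-like cells (121.6 and 124.2 CPM) and lowest in neutrophil-like cells (21.7 and 43.1). Cox5a was also highest in Kupffer-like cells (934.5 and 1103 CPM), against 299.5 and 501.5 in endothelial-like, 507.5 and 562.4 in monocyte-like and 332.1 and 458.6 in neutrophil-like cells. Ndufab1 was highest in Kupffer-like cells too (123.7 and 214.0, against 54.1 and 82.2 in neutrophil-like cells). Ndufa12 was highest in endothelial-like cells (104.5 and 116.5) and Ndufb5 in monocyte-like cells (198.9 and 211.6). For Sdhc, Cox5a and Ndufab1 the Kupffer-like cells headed the order in both mice.

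In endothelial-like cells the nuclear subunits had a summed ratio of 1.066 (1.049 to 1.084). There 48 of 74 genes were above 1, against 27.9% of all genes, and 1 was at least 1.5-fold higher, against 5.78%. That gene was Cox5a (299.5 and 501.5 CPM, 1.67, 1.51 to 1.86). Ndufb3 was low in this class as well (178.9 and 135.2 CPM, 0.756), as was Atp5a1 (299.1 and 239.5, 0.801). The ratio was 0.932 when cells needed 2000 UMIs (475 saline and 185 Ter119 cells). It was 0.865 when they held at most 5% mt- UMIs (46 saline and 326 Ter119 cells, where 50 were otherwise asked of a class). The all-gene median log2 ratio moved as well, from -0.26 to -0.58 and -0.47. The direction of the subunit sum thus depended on which cells were kept. Markers of other cells moved in this class too. The 8 Kupffer markers summed to 2247 CPM in saline and 2970 in Ter119 endothelial-like cells, which is 10.7% and 21.3% of their level in the Kupffer-like cells of the same sample, and the 7 stellate cell markers to 417 and 715 CPM. Cox5a has its highest level in Kupffer-like cells; the part of such RNA in its ratio here was not tested.

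In monocyte-like cells the summed ratio was 0.939 (0.922 to 0.955), with 30 of 74 genes above 1, against 26.6% of all genes, and none past 1.5-fold, against 4.87% higher and 22.2% lower. Sdha was at 124.4 and 90.6 CPM (0.728, 0.563 to 0.937), whereas the same gene had a ratio of 1.24 in Kupffer-like cells. Scaled to nuclear UMIs without hemoglobin the summed ratio was 1.05, with 50 genes above 1 and 24 below, so the direction in this class depends on whether hemoglobin is counted. It made up 11.3% of the UMIs of Ter119 monocyte-like cells. In this class the Kupffer markers summed to 1355 CPM in saline and 2210 in Ter119, the neutrophil markers to 142 and 456, and the hepatocyte markers to 853 and 245. Their part in the subunit values was not tested.

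In neutrophil-like cells the summed ratio was 1.211 (1.176 to 1.246). There 62 of 74 genes were above 1, against 34.7% of all genes, and 29 were at least 1.5-fold higher, against 19.6%, and 2 lower, against 47.0%. Ndufv3 was at 52.3 and 201.0 CPM (3.84, 2.61 to 5.85), Atp5o, of the peripheral stalk, had a ratio of 2.87 (1.96 to 4.33), and Cycs was at 52.3 and 118.8 CPM (2.27, 1.52 to 3.51). The 2 lower genes were Ndufa7 (0.540) and Atp5l (0.609). The mt- encoded subunits had a ratio of 0.375, with 13 of 13 genes at least 1.5-fold lower. The neutrophil-like cells of the mice differed in granule genes: Ngp, Camp, Ltf and Lcn2, transcribed in immature neutrophils, summed to 3025 CPM in saline and 79188 in Ter119, while Cxcr2, of mature neutrophils, was at 1500 and 119.6. Kupffer markers summed to 3135 and 1966 CPM in these cells and hepatocyte markers to 1855 and 169. The 12 neutrophil markers rose from 138353 to 311387 CPM, which leaves less of the Ter119 CPM for other genes. The part of these shifts in the subunit values was not tested.

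The mt- encoded subunits were below 1 in each class: 13 of 13 genes in Kupffer-like, endothelial-like (summed ratio 0.711), monocyte-like (0.702) and neutrophil-like cells. Of all genes, 25.1%, 27.9%, 26.6% and 34.7% were above 1 in these classes, so most genes lay below 1 in each. With factors from the median of gene ratios, 2 of the 13 in Kupffer-like and 1 in endothelial-like cells crossed to above 1.

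**Figure D4:**
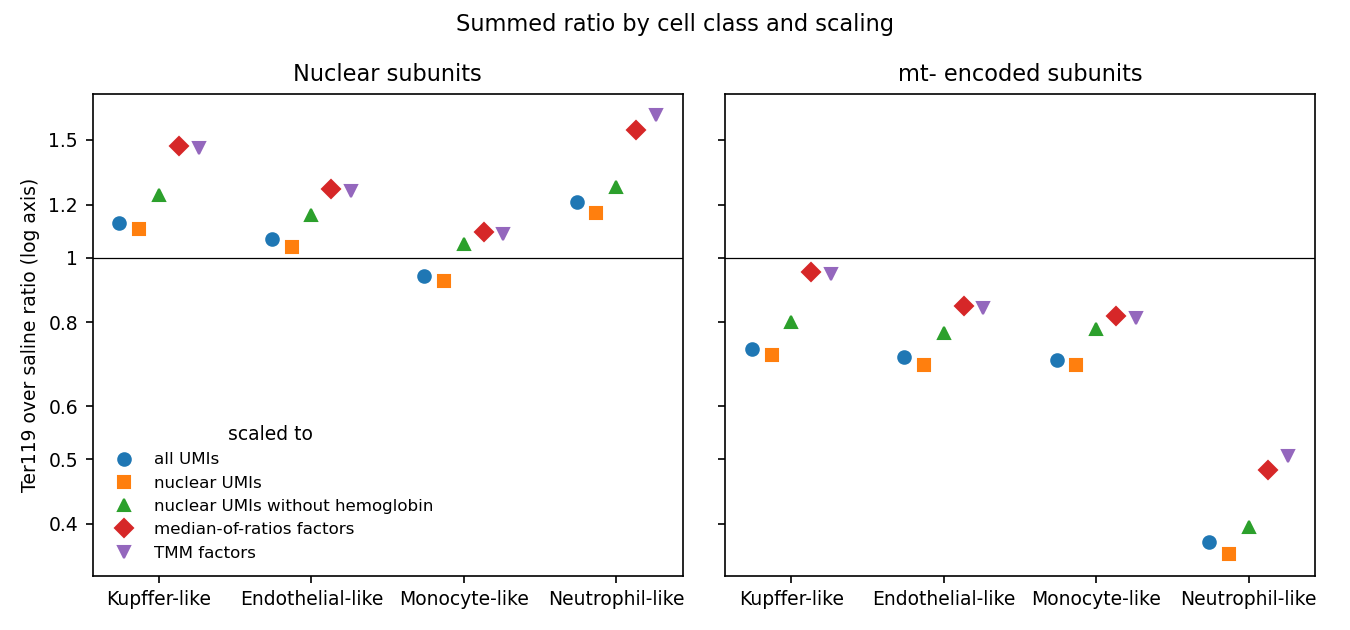
Ter119 over saline ratio (log axis) of the summed nuclear subunits (left) and mt- encoded subunits (right) in 4 cell classes under 5 scalings, shown by marker shape. Nuclear subunits lie above 1 in Kupffer-like, endothelial-like and neutrophil-like cells under each scaling shown, from 1.04 to 1.63, and change side in monocyte-like cells. The mt- sums lie below 1 throughout.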

How the data were processed

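The deposited matrices hold whole-number UMI counts per gene and cell from 10x 3' v3.1 libraries; per the file headers they were written by Cell Ranger 6.0.2, and the submitters' processing notes name GRCm38.p6 and an earlier Cell Ranger, 4.0.0. The sources used here do not say how pooled, hashtagged cells were assigned to mice. No doublet caller was run: barcodes over the limit for another class's markers entered no class, but lower levels were allowed (for Kupffer markers, under 60 per 10000), and doublets may remain.

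Cells (at least 1000 UMIs, 500 genes, at most 15% mt- UMIs) were classed by marker UMIs per 10000 nuclear UMIs other than hemoglobin (at least 80 for Kupffer-like cells), with at least 2 markers of the class and limits on those of other classes. Gate thresholds were set after seeing the data, and Chil3 and Plac8 were left out because neutrophils and B cells share them. Of Kupffer-like cells, 143 saline and 816 Ter119 cells lay within 25% above the gate; 155 and 957 lay within 25% below it. Counts were summed per class and sample and given as CPM. No length scaling was applied, since 3' counting takes 1 UMI per molecule. Ratios carry exact conditional binomial and levels exact Poisson intervals; the floor is 3 counts. On simulated Kupffer-like sums (5828 genes) 95.11% of intervals held the true ratio. The simulation drew counting error only, as the intervals assume, so coverage near 95% was built in. Spread between cells, mice or libraries was not simulated.

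Genes named are, per complex, the 3 highest and 3 lowest ratios at 50 CPM or more and the most abundant member; all isoform pairs; the 5 members of widest class range; and the extremes of the other lists. Further members and regulators were named after their values were seen. Members and lists were chosen with earlier results of these data known. Alternatives covered scaling (edgeR 4.0.16 TMM among them), filters and gates. Analyses used Python 3.11.15, numpy 2.4.6, scipy 1.17.1 and pandas 2.3.3.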

Additional observations from a re-analysis of the deposited data

Results flagged for a closer look

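The same subunits lay above 1 in some cell classes and below 1 in monocyte-like cells, each with a counting interval that left out 1. The difference between classes was not tested, since each treatment has 1 mouse. For all nuclear subunits the Ter119 over saline ratio was 1.126 in Kupffer-like, 1.066 in endothelial-like and 1.211 in neutrophil-like cells, and 0.939 in monocyte-like cells. For complex I it was 1.118 in Kupffer-like and 1.284 in neutrophil-like cells, against 0.957 in monocyte-like cells. Complex II was at 1.134 in Kupffer-like and 0.856 in monocyte-like cells. Complex III was at 1.068 in Kupffer-like, 1.051 in endothelial-like, 1.229 in neutrophil-like and 0.903 in monocyte-like cells. Complex IV was at 1.209 in Kupffer-like, 1.122 in endothelial-like, 1.209 in neutrophil-like and 0.946 in monocyte-like cells. Complex V was at 1.066, 1.077 and 1.145 in these 3 classes and 0.933 in monocyte-like cells. Scaled to nuclear UMIs without hemoglobin the monocyte-like complexes were at 1.068, 0.954, 1.007, 1.055 and 1.040 for I to V, so that complex II alone stayed below 1; Sdha (0.728) and Sdhd (0.730) were its lowest genes on CPM of all UMIs.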

How the results depend on the processing

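Values are Ter119 over saline ratios of summed CPM. At 1.5-fold the share of all genes higher in Ter119 was computed only under the main settings (6.09% in Kupffer-like cells). The gene counts under the alternatives therefore have no background beside them. In Kupffer-like cells the order is complexes I, II, III, IV and V, then the mt- encoded sum, then the number of nuclear subunits at least 1.5-fold higher (5 as reported), and then the nuclear subunits of endothelial-like, monocyte-like and neutrophil-like cells.

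With nuclear UMIs as denominator the values were 1.09, 1.11, 1.05, 1.18 and 1.04, 0.714 for mt-, 3 genes, 1.04 in endothelial-like and 1.16 in neutrophil-like cells. Without hemoglobin in that denominator they were 1.23, 1.247, 1.17, 1.33 and 1.17, 0.802, 10 genes, then 1.16, 1.05 and 1.28. With median-of-ratios factors they were 1.46, 1.48, 1.39, 1.57 and 1.39, 0.951, 32 genes, then 1.27, 1.09 and 1.55. With TMM factors they were 1.45, 1.47, 1.38, 1.57 and 1.38, 0.945, 31 genes, then 1.258, 1.09 and 1.63. These last 2 scalings set the typical gene near 1, which moves every sum upward by construction: the Kupffer-like all-gene median went from -0.35 to 0.03 and 0.02 on the log2 scale.

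Keeping cells with at most 5% mt- UMIs gave 1.02, 1.07, 0.989, 1.095 and 0.982, 0.738, 2 genes, then 0.865, 0.917 and 1.16. Complexes III and V and the endothelial-like sum, which then rested on 46 saline cells, changed side there, and the cause was not tested. With nuclear UMIs other than hemoglobin as denominator, Kupffer-like complexes III and V were at 1.155 and 1.146 in the 0 to 5% mt- band. Without cells over 1% hemoglobin the values were 1.24, 1.262, 1.17, 1.34 and 1.17, 0.834, 13 genes, then 1.18, 1.09 and 1.31. The monocyte-like sum thus changed side under 4 alternatives. A minimum of 2000 UMIs gave 1.11 for complex I, 1.06 for III, 1.201 for IV, 0.738 for mt-, 0.932 in endothelial-like and 0.887 in monocyte-like cells. Leaving out the 8% of cells with most UMIs gave 1.14 for complex I, 1.1002 for III, 1.24 for IV, 1.09 for V and 0.737 for mt-. The stricter gate gave 0.750 for mt-, 3 genes, 1.04 in endothelial-like and 0.961 in monocyte-like cells. A limit of 25% mt- gave 0.698 and the gate from Cd5l, Vsig4, Fcna and Marco 0.735 for mt-.

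Chosen after seeing the data, cells with 2000 to 4000 UMIs gave 1.00 for complex I, 1.138 for II, 1.01 for III, 1.08 for IV, 0.944 for V, 0.669 for mt- and 2 genes. Cells with 4000 to 8000 UMIs gave 1.261, 1.17, 1.17, 1.36 and 1.19, 0.643 and 19 genes. Without a filter on low values 8 genes passed, and at 2-fold 0. The mt- sum in Kupffer-like cells stayed below 1 under each alternative run, and 0 nuclear subunits were at least 1.5-fold lower under each. Leaving out shared barcodes moved no Kupffer-like sum beyond its interval. No paired analysis was possible because each treatment has 1 sample and the labels give no replicate numbers.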
